A study of Mus musculus with 16 samples.

Results

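The matrix metalloprotease (Mmp), Adamts and Timp genes were followed in the whole mouse uterus after 1 dose of dexamethasone, a synthetic glucocorticoid, in mice with or without neonatal exposure to genistein, an estrogen receptor ligand found in soy. Members were the genes whose RefSeq-annotated array probes map to a symbol of the form Mmp, Adamts or Timp followed by its number. Of 46 such genes in the annotation, 43 had a probe, namely 21 Mmp, 18 Adamts and all 4 Timp genes, whereas Mmp1b, Mmp27 and Adamts17 had none. A total of 37 members were tested among 24666 genes and unnamed targets, of which 16542 had a symbol. Timp2 and Timp3 each had 1 spot flagged as an outlier and were fitted on the 15 arrays left. Adamts13, Mmp28, Mmp20 and Mmp24 were well above background on 3, 1, 0 and 0 of 16 arrays, too few to be tested.

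The 4 groups had 4 arrays each. SalV mice received the neonatal control treatment and adult vehicle, SalD mice the neonatal control treatment and 1 mg/kg dexamethasone, GenV mice 50 mg/kg genistein and vehicle, and GenD mice genistein and dexamethasone. Genistein or the control was given on postnatal days 1 to 5, and the control is named saline in the sample labels and 20 µl of corn oil in the series design. Adrenals and ovaries had been removed from all mice at 6 weeks, so that every group lacked these sources of corticosterone and ovarian steroids. The adult injection, 100 µl of saline with or without dexamethasone, followed at 8 weeks, and the uterus was collected 4 h later. The labels give no strain and name no animals, and p-values therefore reflect only how far these arrays spread, which may be technical. The series title poses the question of whether early genistein changes how the adult uterus responds to glucocorticoids.

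Matrix metalloproteases are zinc enzymes, secreted or held at the cell surface, that cut collagens, gelatins, proteoglycans and other proteins around the cell. ADAMTS enzymes are secreted relatives with thrombospondin repeats, and they divide by substrate into proteoglycan-cutting enzymes, procollagen-trimming enzymes and others of less certain role. TIMPs, the tissue inhibitors of metalloproteases, block the active site of most of these enzymes, and TIMP-3 is the main inhibitor of the ADAMTS branch. In the uterus these genes are known for the breakdown and rebuilding of stroma during the cycle, implantation, decidualization and involution after birth.

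Values are scaled log2 signals, in which each probe's log2 spot signal is set against its array's 75th percentile, so that a difference of 1 is a doubling and levels of different genes cannot be compared. Differences come from limma with their standard error (SE), and a gene was called when its Benjamini-Hochberg adjusted p over all tested genes was below 0.05. The 75th percentile ran from 948 to 2719, 68.9 to 81.3% of spots were well above background, and arrays of 1 group correlated across genes at 0.963 or more. The uterine genes Esr1, Pgr, Hoxa10, Hoxa11, Emx2, Wnt4 and Msx1 were well above background on 16 of 16 arrays. The SalD arrays stood apart from the rest on the first principal component, and the GenV group was split on the second, with arrays 3 and 4 at 73.2 and 49.7 and arrays 1 and 2 at -42.5 and -52.2. Adipocyte genes also varied, with a summed level (linear scale, relative to the 75th percentile) of 4.08 to 29.1 in SalV, 23.3 to 78.6 in GenV, 12.8 to 83.2 in GenD and 17.0, 236, 205 and 93.0 on SalD arrays 1 to 4. Calls that were lost without SalD arrays 2 and 3, or without GenV arrays 3 and 4, are given below beside the result.

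After dexamethasone Timp1, Mmp11, Mmp2 and Mmp9 were called lower and Adamts15 and Adamts9 higher in both arms. Timp1, Mmp11 and Adamts15 kept both calls under each of the 32 alternative settings, whereas Mmp2, Mmp9 and Adamts9 lost a call in some. In the control arm 15 of 37 tested members were called, 5 higher and 10 lower, which is 40.5% against 23% of all genes tested. Among all genes 8.44% were called higher and 14.6% lower. After genistein 10 members were called, 4 higher and 6 lower, which is 27% against 5.28% of all genes, with 2.49% of all genes higher and 2.79% lower. The median difference of the members was -0.20 in the control arm and -0.24 after genistein, against -0.16 and -0.015 over all genes. Leaving out SalV array 1 gave 11 members and 3109 of all genes in the control arm, against 15 and 5670, and leaving out SalD array 4 gave 11 and 3568. After genistein 10 members and 1303 genes became 7 and 859 without GenV array 1, 7 and 835 without GenD array 2, 6 and 718 without GenD array 3 and 6 and 962 without GenD array 4. Without GenV arrays 3 and 4 together, members called fell to 4 while all-gene calls rose to 1450. The 6 members named above made up 6 of the 15 calls of the control arm and 6 of the 10 after genistein. The share of all genes called alike in both arms is not given here, so these 6 are not shown to be an excess.

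**Figure D1:**
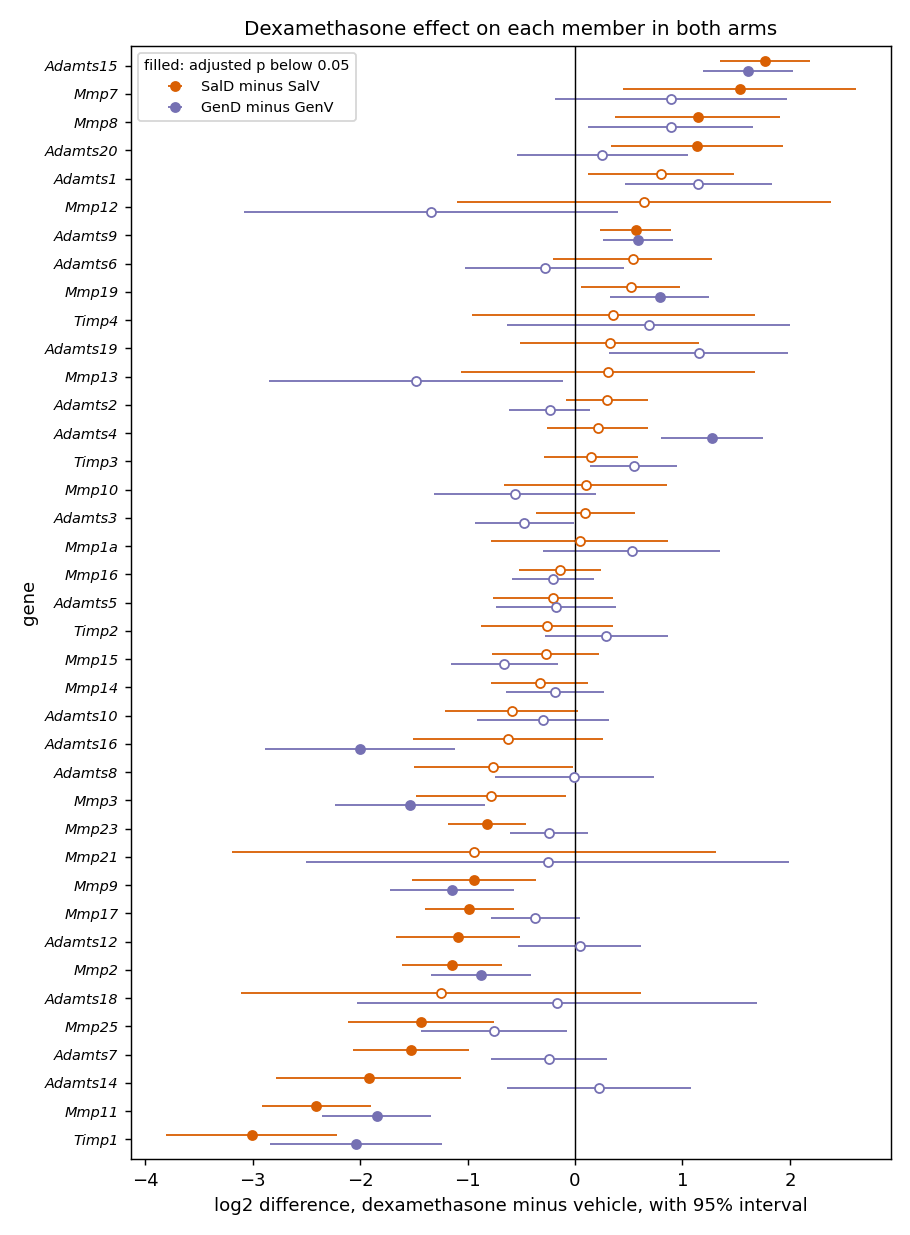
Log2 difference between dexamethasone and vehicle (x axis) with its 95% interval for each of the 37 tested members plus Timp2 and Timp3 (y axis), orange for SalD minus SalV and purple for GenD minus GenV, filled where the adjusted p was below 0.05. Timp1 and Mmp11 lie farthest to the left in the control arm, at -3.01 and -2.41, and Adamts15 farthest to the right, at 1.77.

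The direction of the all-gene shift depended on the scaling between arrays. In the control arm the all-gene median was -0.16 with the 75th percentile, -0.04 with quantile normalization and 0.07 with median scaling, and the share of all calls that were higher was 36.7, 47.3 and 64.8%. Member calls in the control arm were 5 higher and 10 lower, 6 and 9, and 7 and 9 under these 3 scalings, and no call changed direction between them.

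Member calls also depended on the background correction. With normexp, which models local background in place of the deposited subtraction, 10 members were called in the control arm, 4 after genistein and 5 for genistein under dexamethasone, and each of these was also called with the deposited signal. The calls it ended were those of Mmp7, Mmp8, Mmp25, Adamts12 and Adamts20 in the control arm, of Mmp2, Mmp3, Mmp9, Mmp19, Adamts9 and Adamts16 after genistein, and of Timp1, Mmp25 and Adamts12 under dexamethasone. The same setting called 3323 of all genes in the control arm and 370 after genistein.

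Timp1, the inducible inhibitor of most secreted metalloproteases, fell in both arms. Its scaled log2 signal was 2.93, 1.43, 2.48 and 1.63 on the SalV arrays (2.12 ± 0.71, SD, n = 4) and -1.22, -0.64, -0.99 and -0.73 on the SalD arrays (-0.90 ± 0.26, SD, n = 4). All SalD arrays lay below all SalV arrays, and the difference was -3.01 (SE 0.37, 8.06-fold lower, adjusted p = 0.000219). After genistein the values were 2.16, 1.46, 2.94 and 2.38 with vehicle (2.23 ± 0.61, SD, n = 4) and -0.53, 0.31, 0.83 and 0.18 with dexamethasone (0.20 ± 0.56, SD, n = 4). These groups did not overlap either, and Timp1 fell by 2.04 on the log2 scale (SE 0.37, 4.10-fold lower, adjusted p = 0.00544). Within slides that held both groups the difference was -3.61, -2.65 and -2.62 in the control arm (slides 1, 3 and 4) and -2.01, -2.07 and -1.28 after genistein (slides 2, 3 and 4). The other Timp1 probe gave -2.26 and -2.20, both called. Neutrophil genes moved with these falls, their summed level being 2.94 to 3.99 in SalV and 0.575 to 1.52 in SalD, and 2.41 to 4.74 in GenV and 0.528 to 1.02 in GenD, with 6 of 8 measured genes lower in each arm. Their part in the result was not tested. In bulk tissue, fewer cells of a type and less RNA per cell cannot be told apart.

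The other inhibitors did not pass the test after dexamethasone in either arm. Timp2, which also helps MMP-14 to activate pro-MMP-2, ran from 5.85 to 6.52 on the 3 SalV arrays with a value, from 5.69 to 6.04 in SalD, from 4.78 to 5.95 in GenV and from 5.33 to 6.13 in GenD, and all pairs of groups overlapped. Its dexamethasone difference was -0.26 (95% interval -0.88 to 0.35) in the control arm and 0.29 (-0.28 to 0.86) after genistein, on 15 arrays. Timp3, the matrix-bound inhibitor, was 4.49, 4.64, 4.57 and 4.59 in SalV and 5.15, 4.55 and 4.47 on the 3 SalD arrays with a value. It ran from 4.05 to 4.82 in GenV and from 4.70 to 5.05 in GenD, with overlap. The Timp3 difference was 0.15 (95% interval -0.29 to 0.59) in the control arm and 0.55 (0.14 to 0.95, adjusted p = 0.129) after genistein. Timp4 was -2.33, -4.88, -4.43 and -2.81 in SalV, -3.48, -2.72, -3.27 and -3.56 in SalD, -2.45, -2.06, -4.82 and -2.10 in GenV and -2.15, -2.08, -2.60 and -1.85 in GenD. The SalV and GenV arrays of Timp4 were spread widely, and its dexamethasone differences of 0.36 (95% interval -0.96 to 1.67) and 0.69 (-0.63 to 2.00) were within that spread.

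**Figure D2:**
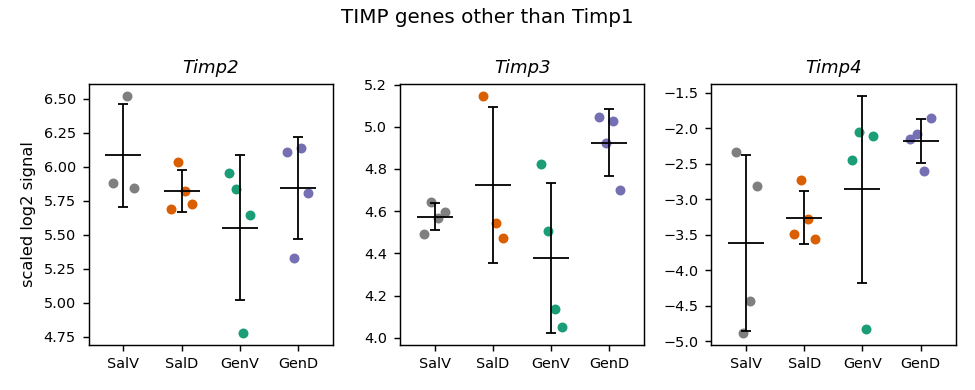
Scaled log2 signal (y axis, a separate range for each gene) of Timp2, Timp3 and Timp4 on each array of the 4 groups (x axis), with points for arrays and bars for the mean and SD. Timp2 lacks SalV array 2 and Timp3 lacks SalD array 2, and no dexamethasone difference of these genes was called.

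Mmp11, a stromelysin of stromal cells that furin-like proteases activate inside the cell, fell in both arms. Its signal was 3.67, 3.23, 3.85 and 2.80 in SalV (3.39 ± 0.47, SD, n = 4) against 0.99, 0.95, 1.23 and 0.76 in SalD (0.98 ± 0.19, SD, n = 4). With genistein it was 3.38, 3.62, 2.78 and 2.98 in GenV (3.19 ± 0.38, SD, n = 4) against 1.41, 1.65, 1.23 and 1.11 in GenD (1.35 ± 0.23, SD, n = 4). No dexamethasone array reached the lowest vehicle array. The difference was -2.41 (SE 0.24, 5.30-fold lower, adjusted p = 4.17e-05) in the control arm and -1.84 (SE 0.24, 3.59-fold lower, adjusted p = 0.000464) after genistein. On slides 1, 3 and 4 the control-arm difference was -2.82, -2.24 and -1.57, and on slides 2, 3 and 4 it was -2.07, -1.34 and -2.51 after genistein.

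The promoters of the members called alike in both arms are shown because each of these genes changed in the same direction in mice of separate treatment groups, 4 lower and 2 higher. An entry was held for 3 of the 6, Timp1, Mmp11 and Adamts9, and sequences are from RefSeq (GRCm38.p6), 250 bases up to the gene's start, 5′ to 3′ on the gene's strand. They lie at chrX:20869916-20870165 on the plus strand, chr10:75932503-75932752 on the minus strand and chr6:92943535-92943784 on the minus strand. Capitals mark matches to the motifs searched on both strands.
Timp1 promoter: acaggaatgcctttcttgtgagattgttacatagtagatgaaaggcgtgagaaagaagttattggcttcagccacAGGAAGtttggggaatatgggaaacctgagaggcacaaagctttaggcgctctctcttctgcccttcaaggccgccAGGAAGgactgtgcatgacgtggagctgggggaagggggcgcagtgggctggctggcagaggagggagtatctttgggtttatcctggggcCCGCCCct
Mmp11 promoter: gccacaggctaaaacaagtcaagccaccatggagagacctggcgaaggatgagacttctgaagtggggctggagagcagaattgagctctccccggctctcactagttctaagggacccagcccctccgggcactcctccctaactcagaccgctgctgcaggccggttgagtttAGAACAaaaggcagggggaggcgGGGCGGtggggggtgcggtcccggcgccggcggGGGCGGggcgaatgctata
Adamts9 promoter: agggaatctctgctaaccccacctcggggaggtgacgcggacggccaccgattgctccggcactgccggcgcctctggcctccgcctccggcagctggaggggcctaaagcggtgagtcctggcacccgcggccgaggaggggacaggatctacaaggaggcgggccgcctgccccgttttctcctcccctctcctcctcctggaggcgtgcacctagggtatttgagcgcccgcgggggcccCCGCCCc
The 6 motifs searched were AP-1 (TGANTCA), PEA3 (AGGAAG), the GC box (GGGCGG), the TATA box (TATAAA), the hexamer AGAACA of glucocorticoid receptor sites and the palindrome GNACANNNTGTNC, whose ends can overlap that hexamer without containing it. Timp1 held AGGAAG from 175 to 170 and from 99 to 94 bases before the start and the GC box on the opposite strand, printed as CCGCCC, from 8 to 3 bases before it. Mmp11 held AGAACA from 75 to 70 and the GC box from 52 to 47 and from 19 to 14 bases before its start, and Adamts9 held the GC box on the opposite strand from 7 to 2 bases before its own. Over the same window of 32851 mouse promoters, TGANTCA occurred in 6.75%, AGGAAG in 29.5%, GGGCGG in 32.7%, TATAAA in 12.4%, AGAACA in 16.1% and the palindrome in 0.387%. Of the 32 members with an entry, 8, 13, 16, 9, 4 and 0 held these motifs. A member counted if any of its entries held the motif, whereas the percentages are of single promoters, so the counts and percentages are not in like units. A match is a description of letters and not a site.

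The gelatinases fell in both arms by smaller amounts. Mmp2, or gelatinase A, which cuts denatured collagen and basement membrane collagen, ran from 2.75 to 3.50 in SalV and from 1.56 to 2.15 in SalD. It ran from 2.64 to 3.17 in GenV and from 1.70 to 2.53 in GenD, and in neither arm did the groups overlap. Mmp2 differed by -1.14 in the control arm (SE 0.22, 2.21-fold lower, adjusted p = 0.00309) and by -0.88 after genistein (SE 0.22, 1.83-fold lower, adjusted p = 0.0309). Leaving out GenV array 1, 2 or 3 or GenD array 1, 3 or 4 ended the call after genistein (difference -0.90 to -0.74, adjusted p = 0.0572 to 0.0881), as did slide as a block (adjusted p = 0.106), the replicate block (adjusted p = 0.0571) and leaving out GenV arrays 3 and 4 (adjusted p = 0.0565). Stromal marker genes summed to 196 to 228 in SalV, 134 to 202 in SalD, 203 to 280 in GenV and 126 to 172 in GenD. Of 9 measured, 2 were called lower and none higher in the control arm, and 3 lower and 1 higher after genistein. Their part in the Mmp2 result was not tested.

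Mmp9, or gelatinase B, which neutrophils and macrophages carry, was -1.80, -2.25, -1.98 and -2.04 in SalV (-2.02 ± 0.19, SD, n = 4) and -2.58, -3.23, -2.44 and -3.58 in SalD (-2.96 ± 0.54, SD, n = 4). It was -1.78, -2.10, -2.25 and -1.58 in GenV (-1.93 ± 0.30, SD, n = 4) and -2.53, -2.95, -3.17 and -3.62 in GenD (-3.07 ± 0.45, SD, n = 4). Every dexamethasone array lay below every vehicle array of its arm, and Mmp9 fell by 0.94 on the log2 scale (SE 0.27, adjusted p = 0.0244) and by 1.14 (SE 0.27, adjusted p = 0.0249). The control-arm call was lost without SalV array 1, SalD array 2 or SalD array 4 (difference -0.87 to -0.73, adjusted p = 0.0551 to 0.0783), with slide as a block (adjusted p = 0.0621) and with median scaling (adjusted p = 0.0745). The call after genistein was lost without GenV array 1 or 4 or GenD array 2, 3 or 4 (difference -1.18 to -0.96, adjusted p = 0.0504 to 0.0708), without GenV arrays 3 and 4 together (adjusted p = 0.0673), with the mean of its probes (-0.94, adjusted p = 0.062) and when only the arrays compared were fitted (adjusted p = 0.0714). With normexp that difference shrank to -0.35 (adjusted p = 0.407). The other Mmp9 probe gave -0.88 (adjusted p = 0.0482) and -0.75 (adjusted p = 0.203). Neutrophil genes, given above, fell along with Mmp9 in both arms. Macrophage genes summed to 13.3 to 15.7 in SalV and 8.63 to 14.8 in SalD, with 2 of 10 called higher and 2 lower, and to 12.7 to 23.8 in GenV and 9.22 to 12.2 in GenD, without overlap, with 1 called higher and 3 lower. Their part in the Mmp9 result was not tested.

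**Figure D3:**
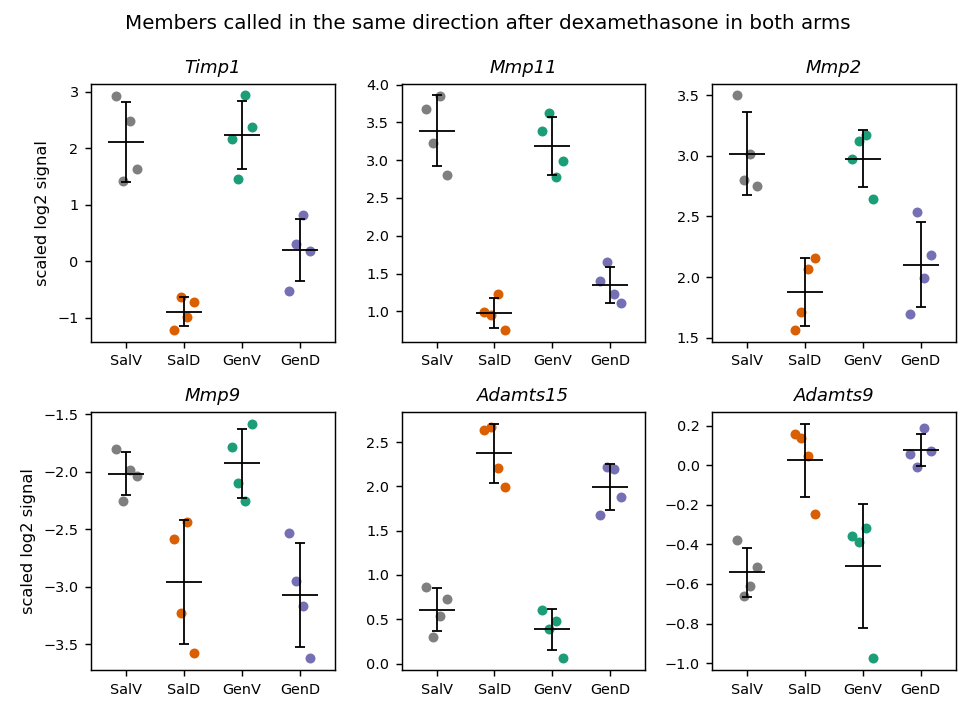
Scaled log2 signal (y axis, a separate range for each gene) on each array of the 4 groups (x axis) for the 6 members called in the same direction after dexamethasone in both arms, with points for arrays and bars for the mean and SD. Vehicle and dexamethasone arrays of an arm do not overlap for any of the 6. These genes were chosen by their calls, and the share of all genes without overlap is not given here.

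Mmp25, Mmp17 and Mmp23, all held at the cell surface, were called lower in the control arm. Mmp25, a glycolipid-anchored enzyme described from leukocytes, was -5.55, -6.35, -5.92 and -6.54 in SalV (-6.09 ± 0.44, SD, n = 4) and -7.31, -6.86, -7.98 and -7.92 in SalD (-7.52 ± 0.53, SD, n = 4). It was not well above background on any SalD array, and so the fall is given as at least 2.70-fold (adjusted p = 0.00712), where a bound of this kind sets the brighter group's mean against the dim group's values or the lowest signal well above background. The GenV values of Mmp25 were -5.42, -5.47, -5.63 and -5.58 and the GenD values -6.35, -7.15, -5.87 and -5.75, a difference of -0.75 that was not called (adjusted p = 0.223). Mmp17, another glycolipid-anchored enzyme, ran from -0.08 to 0.21 in SalV and from -1.23 to -0.50 in SalD, without overlap, and differed by -0.98 (SE 0.19, adjusted p = 0.0039). Its other probe gave -1.14 (adjusted p = 0.00263). After genistein Mmp17 ran from -0.04 to 0.20 with vehicle and from -0.69 to 0.09 with dexamethasone, a difference of -0.37 (adjusted p = 0.354). Mmp23, a membrane-tethered enzyme released by cleavage, ran from 0.62 to 1.07 in SalV and from -0.32 to 0.33 in SalD and differed by -0.82 (SE 0.17, adjusted p = 0.00476), against -0.24 (adjusted p = 0.514) after genistein.

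Mmp7 and Mmp8 were called higher in the control arm, with overlapping groups. Mmp7, the epithelial enzyme matrilysin, was -3.41, -3.20, -2.55 and -3.42 in SalV (-3.15 ± 0.41, SD, n = 4) and -2.80, -2.50, -0.78 and -0.37 in SalD (-1.61 ± 1.22, SD, n = 4). SalD arrays 3 and 4 were the highest, and the difference was 1.53 (SE 0.51, adjusted p = 0.0419). Leaving out SalV array 1, 2 or 4, SalD array 3 or 4 or GenD array 3 ended the call (difference 1.12 to 1.53, adjusted p = 0.0525 to 0.13), as did leaving out SalD arrays 2 and 3 together (adjusted p = 0.0979), slide as a block (adjusted p = 0.0582) and normexp (0.81, adjusted p = 0.215). In GenV the Mmp7 values were -2.94, -2.61, -2.12 and -2.05 and in GenD -2.29, -1.92, -1.25 and -0.68, and the difference of 0.90 was not called (adjusted p = 0.396). Mmp8, the neutrophil collagenase, ran from -7.24 to -5.66 in SalV and from -6.11 to -4.71 in SalD, a difference of 1.14 (SE 0.36, adjusted p = 0.0348) that was 1.76, -0.45 and 1.05 within slides 1, 3 and 4. It lost its call without SalV array 1, 3 or 4 or SalD array 2, 3 or 4 (difference 0.90 to 1.19, adjusted p = 0.0577 to 0.0946) and without SalD arrays 2 and 3 together (0.86, adjusted p = 0.196), and turned to -0.75 with another background correction. The neutrophil gene sum was lower in SalD than in SalV, as given above.

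Mmp3 and Mmp19 were called after genistein and not in the control arm. Mmp3, a stromelysin that cuts matrix and activates other pro-enzymes, was -0.11, -0.34, 0.92 and 0.73 in GenV (0.30 ± 0.62, SD, n = 4) and -1.23, -1.07, -0.95 and -1.68 in GenD (-1.23 ± 0.32, SD, n = 4). The groups did not overlap, and Mmp3 fell by 1.53 on the log2 scale (SE 0.33, 2.89-fold lower, adjusted p = 0.0141). Without GenV arrays 3 and 4, the 2 highest of that group, the difference was -1.01 (adjusted p = 0.102). In the control arm Mmp3 was 0.12, -0.12, 0.39 and 0.13 in SalV and -1.28, 0.24, -0.83 and -0.73 in SalD, a difference of -0.78 (adjusted p = 0.0969). Mmp19 ran from -4.23 to -3.75 in GenV and from -3.38 to -3.09 in GenD and differed by 0.79 (SE 0.22, adjusted p = 0.0483). That call was lost when any 1 of 13 arrays was left out, all but SalD arrays 2 and 4 and GenV array 3 (difference 0.72 to 0.82, adjusted p = 0.0572 to 0.122), and 7 other settings also ended it, among them leaving out GenV arrays 3 and 4 (adjusted p = 0.0728). Its control-arm difference was 0.52 (adjusted p = 0.0958).

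The remaining tested metalloproteases, Mmp1a, Mmp10, Mmp12, Mmp13, Mmp14, Mmp15, Mmp16 and Mmp21, were not called in any comparison. Mmp14, the membrane enzyme that activates pro-MMP-2, ran from 5.28 to 5.47 in SalV and from 4.87 to 5.12 in SalD, a difference of -0.33 (95% interval -0.78 to 0.12), and after genistein it differed by -0.19 (-0.64 to 0.27). Mmp12, the macrophage elastase, was spread over -3.76 to -0.08 on the SalD arrays alone, and its differences of 0.64 and -1.34 had standard errors of 0.81. Mmp13, the main rodent interstitial collagenase, was well above background on 5 of 16 arrays, 3 of them GenV arrays, and on no GenD array. Mmp21 was well above background on 6 arrays.

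Among proteoglycan-cutting ADAMTS genes, Adamts15 rose in both arms. ADAMTS-15 cleaves versican and aggrecan, large proteoglycans of the matrix. Its signal was 0.86, 0.30, 0.53 and 0.73 in SalV (0.61 ± 0.25, SD, n = 4) and 2.63, 2.67, 2.20 and 1.99 in SalD (2.38 ± 0.33, SD, n = 4). In the genistein arm it was 0.61, 0.39, 0.48 and 0.06 with vehicle (0.39 ± 0.23, SD, n = 4) and 1.68, 2.22, 2.19 and 1.88 with dexamethasone (1.99 ± 0.26, SD, n = 4). All dexamethasone arrays lay above all vehicle arrays, with a difference of 1.77 (SE 0.20, 3.40-fold, adjusted p = 0.000106) in the control arm and 1.61 (SE 0.20, 3.05-fold, adjusted p = 0.000307) after genistein. Slides 1, 3 and 4 gave 1.47, 2.33 and 1.47 in the control arm, and slides 2, 3 and 4 gave 1.33, 2.16 and 1.49 after genistein. Timp1, Mmp11 and Adamts15 were the members whose calls held in both arms under each of the 32 alternative settings run.

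Adamts9, a versican-cutting enzyme that is retained at the cell surface, rose by 0.56 (SE 0.15, adjusted p = 0.0188) in the control arm and by 0.59 (SE 0.15, adjusted p = 0.0405) after genistein. It ran from -0.66 to -0.38 in SalV and from -0.25 to 0.16 in SalD, and from -0.97 to -0.32 in GenV and from -0.01 to 0.19 in GenD, without overlap in either arm. The control-arm call was lost without SalD array 1 (0.52, adjusted p = 0.0521), without SalD arrays 2 and 3 (0.50, adjusted p = 0.114) and with slide as a block (0.53, adjusted p = 0.0612). After genistein the call was lost when any 1 of 12 arrays was left out, all but SalV array 1, SalD arrays 2 and 4 and GenV array 3 (difference 0.43 to 0.64, adjusted p = 0.0505 to 0.117), without SalD arrays 2 and 3 (adjusted p = 0.0649) and without GenV arrays 3 and 4 (0.45, adjusted p = 0.0916).

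Adamts4, an aggrecan-cutting enzyme, rose after genistein. It was -2.80, -3.74, -3.39 and -3.28 in SalV (-3.30 ± 0.39, SD, n = 4) and -2.75, -3.50, -3.25 and -2.88 in SalD (-3.09 ± 0.34, SD, n = 4), against -3.39, -3.12, -3.41 and -3.81 in GenV (-3.43 ± 0.28, SD, n = 4) and -2.20, -1.88, -2.16 and -2.40 in GenD (-2.16 ± 0.21, SD, n = 4). The 4 GenD arrays were higher than all 12 others. Dexamethasone differed from vehicle by 1.27 (SE 0.22, 2.42-fold, adjusted p = 0.00381) after genistein and by 0.21 (SE 0.22, adjusted p = 0.521) in the control arm. Adamts1, which cleaves versican and is a progesterone target of the reproductive tract, did not pass, at 0.80 (adjusted p = 0.0834) in the control arm and 1.15 (adjusted p = 0.0513) after genistein, although its vehicle and dexamethasone arrays did not overlap in either arm. Adamts20 was not well above background on any SalV array and was called higher in SalD, with overlapping groups. The 2.20-fold difference (adjusted p = 0.0412) is an estimate that rests on dim values. Adamts20 lost that call without SalV array 1, 2 or 4, SalD array 1 or 4 or GenV array 1 (difference 0.78 to 1.19, adjusted p = 0.0505 to 0.112), and another background correction turned it to -0.93. Adamts5 and Adamts8, the other measured enzymes of this kind, differed by -0.20 and -0.76 in the control arm and by -0.18 and -0.01 after genistein, and none of these passed.

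Adamts14, Adamts7 and Adamts12 fell in the control arm. Adamts14, an enzyme that trims the amino end of fibrillar procollagen, was -2.47, -3.97, -3.19 and -4.47 in SalV (-3.53 ± 0.88, SD, n = 4) and -5.17, -5.17, -5.29 and -6.17 in SalD (-5.45 ± 0.48, SD, n = 4). All SalD arrays were lower than all SalV arrays, and the difference was -1.92 (SE 0.40, 3.79-fold lower, adjusted p = 0.00503). After genistein it was -3.40, -3.47, -4.35 and -4.15 with vehicle and -3.71, -4.07, -3.72 and -3.00 with dexamethasone, overlapping groups with a difference of 0.22 (95% interval -0.64 to 1.08). The other Adamts14 probe gave -0.72 (adjusted p = 0.0751) in the control arm. The other 2 procollagen-trimming genes, Adamts2 and Adamts3, differed by 0.30 and 0.10 and were not called, although 1 of the other 2 Adamts2 probes gave 0.78 (adjusted p = 0.0397) and the other -0.36 (adjusted p = 0.384).

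Adamts7 and Adamts12 encode enzymes that cleave cartilage oligomeric matrix protein. Adamts7 was -0.41, -0.70, -0.44 and -0.70 in SalV (-0.56 ± 0.16, SD, n = 4) and -2.14, -2.54, -2.02 and -1.65 in SalD (-2.09 ± 0.37, SD, n = 4), without overlap, a difference of -1.53 (SE 0.25, 2.88-fold lower, adjusted p = 0.00144). In GenV it was -0.54, -0.48, -0.65 and -1.75 and in GenD -1.22, -0.95, -1.15 and -1.07, a difference of -0.24 (adjusted p = 0.7). The other Adamts7 probe differed by 0.17 in the control arm (adjusted p = 0.722) and did not follow the brightest probe. Adamts12 was -5.97, -6.07, -6.47 and -7.07 in SalV (-6.39 ± 0.50, SD, n = 4) and -7.22, -7.35, -7.37 and -7.99 in SalD (-7.48 ± 0.34, SD, n = 4). This probe was well above background on 2 SalV arrays and on no SalD array. It differed by -1.09 (95% interval -1.666 to -0.515, 2.13-fold lower, adjusted p = 0.0117). By either probe Adamts12 was well above background on 2 SalD arrays, and the other probe differed by -0.33 (adjusted p = 0.667). The Adamts12 call was lost with quantile normalization (-0.59, adjusted p = 0.0554), with the mean of its probes (-0.71, adjusted p = 0.0819) and with normexp (adjusted p = 0.0981). After genistein Adamts12 was -5.82, -5.86, -6.54 and -6.46 with vehicle and -6.28, -6.41, -6.14 and -5.68 with dexamethasone, a difference of 0.04 (95% interval -0.53 to 0.62). Smooth muscle genes were also lower in SalD than in SalV, with 2 of 9 called and sums of 102 to 208 against 228 to 360. Lymphocyte genes had 6 of 10 called lower and sums of 0.822 to 1.28 against 1.76 to 2.23, and endothelial genes 5 of 10 and sums of 24.4 to 35.4 against 34.6 to 44.1. The ovary and oviduct list had 2 of 8 called lower, with overlapping sums. No marker gene of these 4 lists was called higher. Of other lists, stromal genes had 2 of 9 called lower, whereas adipocyte genes had 6 of 10 called higher and none lower. Epithelial and mast cell genes had 1 each called higher, uterine genes 2 higher and 1 lower, and mesothelial genes 1 higher and 1 lower. The part of these lists in these differences was not tested.

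Adamts16, known for expression in gonad and kidney, fell after genistein. It was -5.34, -5.35, -4.76 and -4.81 in GenV (-5.06 ± 0.33, SD, n = 4) and -7.10, -7.57, -7.09 and -6.51 in GenD (-7.07 ± 0.43, SD, n = 4). No GenD array was well above background, and the groups did not overlap. The fall of 4.01-fold (adjusted p = 0.0115) is an estimate that rests on dim values. The call was lost without GenV arrays 3 and 4 (-1.72, adjusted p = 0.0744) and with slide as a block (-1.95, adjusted p = 0.0541), and another background correction turned the difference to 0.56. In the control arm Adamts16 was -5.77, -6.03, -6.05 and -6.05 in SalV and -7.30, -7.77, -5.50 and -5.82 in SalD, with a difference of -0.62 (adjusted p = 0.292). The remaining tested ADAMTS genes, Adamts6, Adamts10, Adamts18 and Adamts19, were not called on their brightest probe, and the differences ran from -1.25 (Adamts18) to 0.54 (Adamts6) in the control arm and from -0.30 (Adamts10) to 1.15 (Adamts19) after genistein. The other Adamts10 probe was called lower in the control arm, at -1.16 (adjusted p = 0.0154), and differed by -0.03 after genistein.

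Whether the dexamethasone response differed between the arms was tested as an interaction, the genistein-arm difference minus the control-arm difference. No member was called, and 0% of all genes were. At an unadjusted p below 0.05 there were 8 of 37 members and 15.5% of all genes, and the smallest adjusted p among members was 0.174. That value belonged to the brightest probe of Adamts14, on which the response was higher by 2.14 (SE 0.57, 95% interval 0.93 to 3.35) after genistein. Next were Adamts7 at 1.28 (adjusted p = 0.181), Adamts4 at 1.06 (adjusted p = 0.19) and Adamts12 at 1.13 (adjusted p = 0.218). The other probes of these genes gave smaller or opposite values, 0.72 for Adamts14 (adjusted p = 0.381), -0.53 for Adamts7 (adjusted p = 0.546) and 0.64 for Adamts12 (adjusted p = 0.677), and Adamts4 had 1 probe. Larger values than on the brightest probe came from the other probe of Mmp16 (1.79, adjusted p = 0.175, against -0.07) and of Adamts10 (1.13, adjusted p = 0.24, against 0.29). For Adamts2, at -0.535 on its brightest probe, the other 2 probes gave -1.555 (adjusted p = 0.1745) and 0.11 (adjusted p = 0.91). None of these was called. For Timp1 the interaction was 0.97 (95% interval -0.16 to 2.10) and 0.06 on its other probe, for Mmp11 0.56 (-0.15 to 1.28), for Adamts15 -0.16 (-0.75 to 0.43), for Mmp2 0.27 (-0.39 to 0.92), for Mmp9 -0.20 (-1.02 to 0.62) and for Adamts9 0.02 (-0.44 to 0.49). A call in 1 arm and not in the other is therefore not shown to be a difference between arms for any member.

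Genistein without dexamethasone left no member past the threshold. In GenV against SalV 0.00405% of all genes were called and 13.9% had an unadjusted p below 0.05, against 2 of 37 members, and the smallest adjusted p among members was 0.355. Those 2 members were Adamts16, at 0.91 (95% interval 0.03 to 1.80), and Mmp13, at 1.38 (0.01 to 2.75). Timp1 differed by 0.12 (95% interval -0.68 to 0.92), Mmp11 by -0.20 (-0.70 to 0.31) and Adamts15 by -0.22 (-0.64 to 0.20). Timp2 differed by -0.53 (95% interval -1.15 to 0.08) and Timp3 by -0.19 (-0.60 to 0.21).

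Under dexamethasone, 8 of 37 members were called higher in GenD than in SalD and none lower. That is 21.6% against 22.9% of all genes tested, or 16.6% higher and 6.39% lower, so the share of members called was near that of all genes. The median of the members was 0.08 against 0.12 over all genes. Under quantile normalization 7 members were higher and 1 lower, and under median scaling 6 were higher, while the share of all calls that were higher moved from 72.2 to 56.3% under either. Without SalD array 3 or 4 or GenD array 3, all-gene calls fell from 5660 to 3381, 3533 and 3295, with 6, 8 and 6 members called. This comparison and the control-arm dexamethasone comparison rest on the same SalD arrays.

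The 8 members were Adamts14, Adamts12, Mmp25, Timp1, Adamts7, Adamts4, Mmp23 and Mmp17, whose values on the arrays are given above or span the ranges given there. Adamts14 was higher in GenD by 1.83 (SE 0.40, 3.54-fold, adjusted p = 0.00879), without overlap, and its other probe gave 1.33 (adjusted p = 0.00775). Adamts12 was higher by 1.36 on its brightest probe (SE 0.27, 2.56-fold, adjusted p = 0.00621), without overlap, while its other probe differed by 1.07 (adjusted p = 0.135). Quantile normalization gave 0.85 for Adamts12, and normexp ended its call (adjusted p = 0.0639). Mmp25 was higher by 1.24 (SE 0.32, 2.37-fold, adjusted p = 0.0162), with overlap. It lost its call with quantile normalization (0.77, adjusted p = 0.0819) and with normexp (adjusted p = 0.0626). Mmp23 ran from 0.59 to 0.73 in GenD, above all SalD arrays, and differed by 0.72 (SE 0.17, 1.65-fold, adjusted p = 0.0112). Calls for Adamts14 and Mmp23 held under each of the 32 settings.

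Timp1 was higher in GenD than in SalD by 1.09 (SE 0.37, 2.13-fold, adjusted p = 0.0484) on its brightest probe, and its other probe differed by -0.01 (adjusted p = 0.984). The Timp1 call was lost when any 1 of 11 arrays was left out (difference 0.88 to 1.18, adjusted p = 0.0519 to 0.134), among them each SalD array, and with the replicate block (adjusted p = 0.0503), the mean of its probes (0.54, adjusted p = 0.292), median scaling (0.98, adjusted p = 0.0923) and normexp (0.99, adjusted p = 0.0732). Adamts7 was higher by 0.99 (SE 0.25, 1.99-fold, adjusted p = 0.0156) on its brightest probe, but its other probe was lower by 1.11 on the log2 scale, at -1.11 (adjusted p = 0.0205). With the mean of its probes Adamts7 turned to -0.06 (adjusted p = 0.875). Adamts4 was higher by 0.94 (SE 0.22, 1.91-fold, adjusted p = 0.0117). Without SalD arrays 2 and 3, the arrays with the highest adipocyte sums, 4 members lost their call, namely Adamts4 (0.66, adjusted p = 0.115), Adamts7 (0.80, adjusted p = 0.112), Mmp17 (0.59, adjusted p = 0.132) and Timp1 (1.17, adjusted p = 0.138). All-gene calls also fell in that setting, from 5660 to 2396, so the loss was not particular to the members. Mmp17, at 0.61 (SE 0.19, adjusted p = 0.0373), overlapped between the groups and lost its call without SalD array 3 or 4 or GenD array 1, 2 or 3 (difference 0.49 to 0.66, adjusted p = 0.0571 to 0.106). Lymphocyte genes were also higher in GenD, with 6 of 10 called and sums of 1.48 to 2.19 against 0.822 to 1.28 in SalD. Endothelial genes had 3 of 10 called higher, with sums of 35.6 to 46.1 against 24.4 to 35.4, and the ovary and oviduct list 4 of 8, with sums of 1.34 to 2.20 against 1.15 to 1.66. Macrophage genes had 2 of 10 called lower, mesothelial genes 1 of 6 lower, and uterine genes 1 higher and 1 lower. The part of these lists was not tested. Of the 2 Adamts2 probes that are not its brightest, 1 was lower in GenD, at -1.09 (adjusted p = 0.0112), and the other differed by 0.61 (adjusted p = 0.133).

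**Figure D4:**
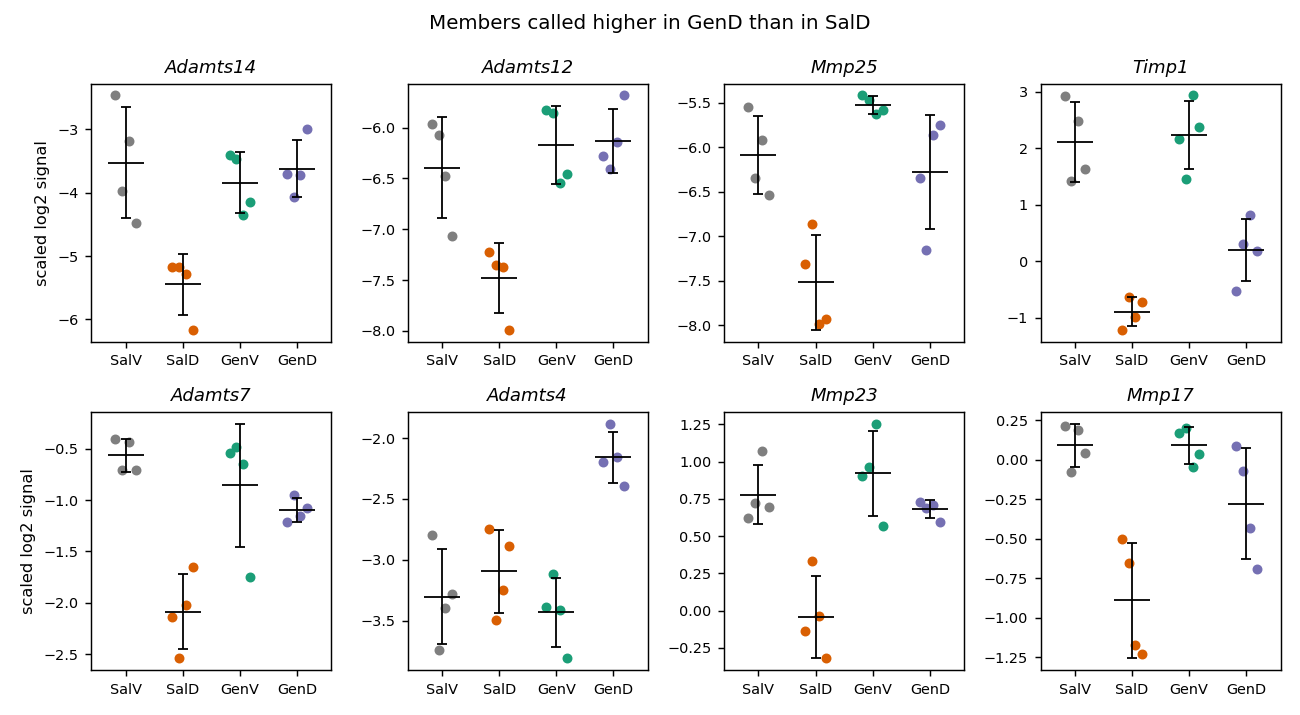
Scaled log2 signal (y axis, a separate range for each gene) on each array of the 4 groups (x axis) for the 8 members called higher in GenD than in SalD, with points for arrays and bars for the mean and SD. SalD is the lowest group for each of them except Adamts4, where GenD lies above the other 3 groups.

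Genes that work with these proteases were followed as a list of 57, of which 51 were tested. In the control arm dexamethasone raised 7 and lowered 8, after genistein it raised 5 and lowered 5, and under dexamethasone 3 were higher and 3 lower with genistein. Of all genes, 8.44% were higher and 14.6% lower in the control arm, 2.49% and 2.79% after genistein and 16.6% and 6.39% under dexamethasone. Against these shares the list had more calls in each direction after genistein and fewer higher calls under dexamethasone. The list was chosen with earlier results of these data known. None was called in the interaction or for genistein under vehicle. The ADAMTS-like genes, whose secreted products resemble ADAMTS enzymes but lack the protease domain, had 3 of 6 higher and 2 lower in the control arm and 2 higher and 1 lower after genistein, where the same all-gene shares apply.

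Adamtsl2, which binds a latent TGF-beta protein and fibrillin, was -6.15, -7.01, -6.58 and -5.27 in SalV and between -2.49 and -1.98 in SalD, without overlap. It rose by 4.02 on the log2 scale (SE 0.47, adjusted p = 0.000146). With genistein it was -5.49, -4.75, -4.50 and -5.17 in GenV and -4.02, -1.88, -1.64 and -2.14 in GenD, with GenD array 1 nearest to the vehicle arrays, and rose by 2.56 (SE 0.47, adjusted p = 0.00544). Another background correction ended both calls (1.26, adjusted p = 0.11, and 1.85, adjusted p = 0.154). Adamtsl3 fell by 1.62 in the control arm (SE 0.39, adjusted p = 0.0106), a call lost with normexp (-1.52, adjusted p = 0.0631), and differed by -1.36 after genistein (adjusted p = 0.0607). Adamtsl4, which binds fibrillin, rose by 0.96 in the control arm (SE 0.16, adjusted p = 0.0017) and by 1.38 after genistein (SE 0.16, adjusted p = 0.000258). The interaction was 0.26 for Adamtsl3 (adjusted p = 0.842) and 0.41 for Adamtsl4 (adjusted p = 0.395).

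Pcsk5, a proprotein convertase of the furin kind, was -1.18, -1.22, -1.14 and -0.93 in SalV and 0.32, 0.70, 0.91 and 0.84 in SalD, and -1.24, -0.72, -1.25 and -1.36 in GenV and 0.73, 0.65, 0.62 and 0.65 in GenD. All dexamethasone arrays were above all vehicle arrays, and Pcsk5 rose by 1.81 in each arm (SE 0.16, adjusted p = 1.81e-05 and 1.72e-05), although the mean of its probes lost the call after genistein (0.71, adjusted p = 0.0731). Reck, a membrane-anchored inhibitor of metalloproteases, rose by 1.04 after genistein (SE 0.26, adjusted p = 0.0332), a call lost with normexp (0.90, adjusted p = 0.148), with slide as a block (adjusted p = 0.131), without GenV arrays 3 and 4 (0.58, adjusted p = 0.179) and without any 1 of GenV arrays 3 and 4 and the 4 GenD arrays (difference 0.80 to 1.08, adjusted p = 0.0576 to 0.0937).

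Under dexamethasone, the largest listed difference was in Papln, which encodes papilin of the basement membrane and was lower in GenD than in SalD at -1.66 (SE 0.29, adjusted p = 0.00415), although normexp turned the difference to 0.25 (adjusted p = 0.76). Acan, the aggrecan gene and a substrate of Adamts4, Adamts5 and Adamts15, was higher at 1.48 (SE 0.40, adjusted p = 0.0205), a call lost without SalD array 4 or GenD array 4 (1.32 to 1.37, adjusted p = 0.054 to 0.0553) and without SalD arrays 2 and 3 (adjusted p = 0.0638). Adamtsl5 was higher at 0.83 (SE 0.15, adjusted p = 0.00465), with GenD values of -3.26 to -3.04 and SalD values of -4.25 to -3.76. Of 16 tested matrix substrates, 2 were lower in each arm after dexamethasone and none higher, which in the control arm is near the 14.6% of all genes called lower. After genistein 2.79% of all genes were called lower, so the share of substrates was above the all-gene share there. Some of the tested substrates are also on the stromal marker list.

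**Figure D5:**
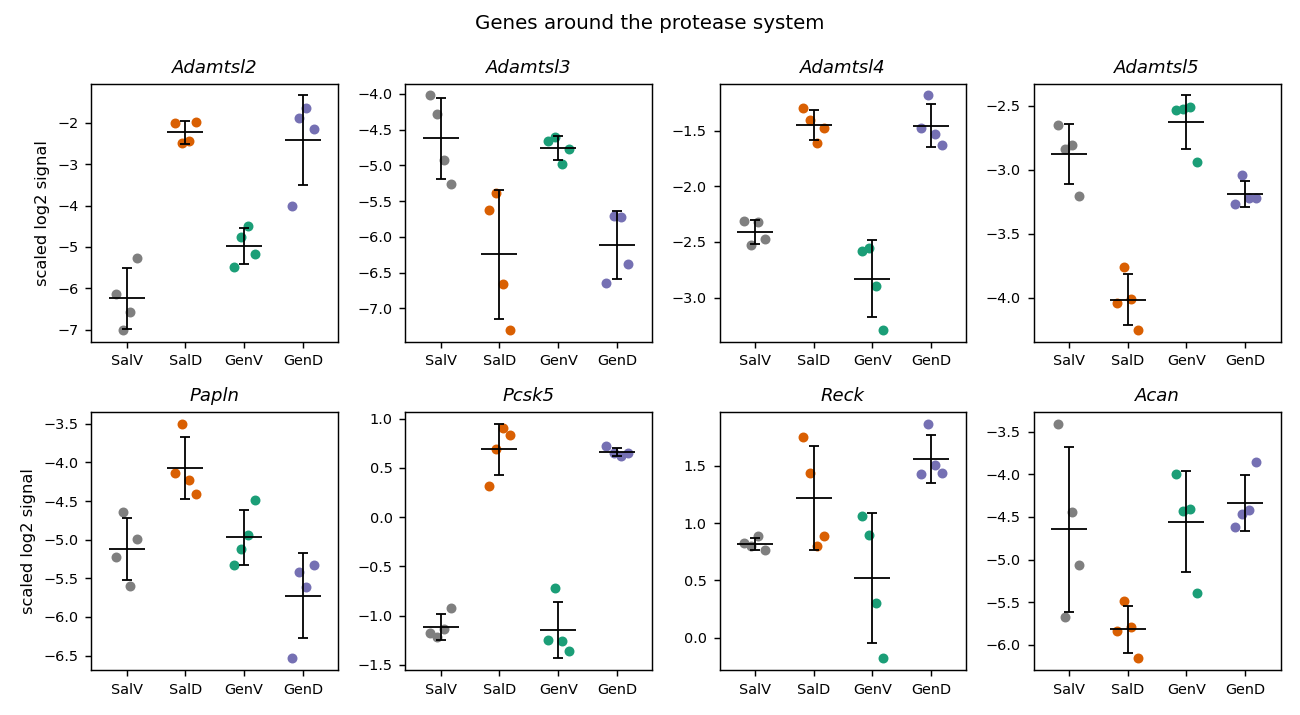
Scaled log2 signal (y axis, a separate range for each gene) on each array of the 4 groups (x axis) for 8 of the named genes that work with the proteases, with points for arrays and bars for the mean and SD. Adamtsl2, Adamtsl4 and Pcsk5 lie higher in SalD than in SalV and in GenD than in GenV.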

How the data were processed

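RNA of whole mouse uterus (400 ng, per the labels' protocols) was hybridised to 16 one-colour Agilent arrays. Per the file headers, the deposited values are linear spot intensity, background-subtracted and detrended by Feature Extraction 12.0.0.7 (9.5 in the submitters' processing notes) and not normalized between arrays.

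From these, log2 signal minus each array's 75th percentile was computed without control spots. Outlier spots were dropped, spots of a probe averaged, and probes kept if well above background on 4 or more of the 16 arrays, the brightest standing for its gene. Symbols came from RefSeq accessions through GRCm38.p6 (28223 of 29245 RefSeq probes matched), while the array grid uses another build, so the only coordinates given are those of the RefSeq promoters.

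A model of 4 group means was fitted with limma 3.58.1 (R 4.3.3, with the data.table package, version 1.17.8), two-sided, with Benjamini-Hochberg adjustment over 24666 genes in each of 5 comparisons. The code was tested on simulated data. The members and gene lists were chosen with earlier results of these data known. Per-array values are given for the 12 called members with the largest difference and for the Timp genes, ranges for the rest, and up to 4 called list genes per comparison are named, except a gene that is not reported here. Alternatives covered scaling, background correction (normexp, offset 50, on median spot and local background signals), filters, probe choice, slide, replicate number, arrays fitted, variance model, array weights and arrays left out. Precision is limited by 4 arrays per group. Figures were drawn with matplotlib 3.10.9 (Python 3.11.15).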

Additional observations from a re-analysis of the deposited data

Results flagged for a closer look

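In 12 of the 170 groups of 4 arrays checked over all members, 1 array stood apart from the other 3 by Dixon's criterion, which chance alone meets in about 1 of 20 groups. Among members called in some comparison, Adamts14 was -6.17 on SalD array 4 against -5.29 to -5.17 on the others, Adamts16 was -5.77 on SalV array 1 against -6.05 to -6.03, and GenV array 4 was low for Adamts7, at -1.75 against -0.65 to -0.48, and for Adamts9, at -0.97 against -0.39 to -0.32. Of the inhibitors, Timp4 was -4.82 on GenV array 3 against -2.45 to -2.06. Among members with no call, Adamts2 was 2.35 on GenD array 2 against 2.93 to 3.00, Adamts6 was -2.04 on SalD array 4 against -1.27 to -1.18, and Adamts18 was -8.93 on SalD array 2 against -6.21 to -6.02. Mmp13 was -9.19 on GenD array 1 against -7.21 to -7.11. Mmp21 was -5.33 on SalD array 4 against -9.40 to -8.90 and -9.37 on GenV array 4 against -6.58 to -6.06. Mmp28, which was too dim to be tested, was -8.14 on SalD array 3 against -9.07 to -9.04.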

How the results depend on the processing

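Across 32 alternative settings, 8 of the 15 member calls of dexamethasone in the control arm held in every setting, as did 4 of the 10 calls after genistein and 2 of the 8 calls of genistein under dexamethasone. In the control arm the others held in 20 of 31 (Mmp8) to 30 of 31 settings (Mmp25), after genistein in 12 (Mmp19) to 29 (Mmp3) and under dexamethasone in 15 (Timp1) to 31 (Adamts4) of 32. The number of members called after genistein was 10 and became 4 with normexp background correction, 6 with slide as a fixed block, 6 with only the arrays compared, 20 with array weights and 4 without GenV arrays 3 and 4. In that last setting all-gene calls rose from 1303 to 1450, while the higher calls among them fell from 614 to 519. Why member calls fell there was not tested. For genistein under dexamethasone the number of members called was 8 and became 5 with normexp and 5 without SalD arrays 2 and 3. All-gene calls there fell from 5660 to 3297 and 2396. Leaving out 1 array at a time gave 11 to 16 members in the control arm, 6 to 10 after genistein, 0 to 0 for the interaction, 0 to 0 for genistein under vehicle and 6 to 8 for genistein under dexamethasone. With the replicate block the counts were 16, 9, 0, 0 and 7 in that order. Same-numbered arrays deviated together in 8 of 24 pairs (correlation above 0.1, range -0.368 to 0.378). The replicate numbers are not known to pair the arrays, and such mixed correlations cannot settle it. With normexp, Adamts20 (-0.932) and Mmp8 (-0.749) turned in the control arm, Adamts16 (0.56) after genistein and Papln (0.249) under dexamethasone, and the all-gene median moved to -0.49 in the control arm and 0.31 after genistein. With the mean of its probes, Adamts7 turned under dexamethasone (-0.057). The cause was not tested. Over all genes, array weights called 6061 genes after genistein against 1303, 11033 for genistein under dexamethasone against 5660, and 96 for the interaction against 0, and normexp called 3323 in the control arm against 5670 and 370 after genistein. Slide as a fixed block called 831 after genistein. For dim members (Adamts12, Adamts16, Adamts20, Mmp25), differences that involve a group not well above background rest on its dim values and are estimates, not bounds.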
